A study of Mus musculus with 8 samples.

Results

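Collagen chain genes encode the alpha chains of the extracellular matrix proteins that fibroblasts are best known for secreting. Members were set by name alone. Their symbol in the array's annotation has the form Col, a type number, the letter a and a chain number. They were chosen with earlier results of these data known. The rule found 44 genes among the 19939 genes measured, through 46 probe sets (groups of array probes for 1 transcript). Col6a5 and Col6a6 had 2 probe sets each, and the probe set with the highest mean over the 8 arrays stood for each gene. By the structure of their proteins, 11 members were fibrillar, 9 formed networks, 9 were FACITs (fibril-associated collagens with interrupted triple helices) and 15 belonged to other classes. A 45th gene of the class lists, Col21a1, matched no probe set with a single symbol and was not analysed here.

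A collagen alpha chain winds with partner chains into a triple helix in the endoplasmic reticulum, where its prolines and lysines are first hydroxylated. Fibrillar collagens are trimmed outside the cell and pack into the fibrils that carry tension, FACITs decorate those fibrils, type IV chains form the sheet under epithelia and vessels, and type VI chains form beaded filaments around cells. Embryonic fibroblasts in culture are known to make the type I, III, V and VI collagens in quantity.

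The samples were 8 arrays of total RNA from mouse embryonic fibroblasts (MEFs) on an FVB/N background, and the cells of all 8 samples came from Daxx knockout animals. Daxx is a chaperone for the histone variant H3.3 and a regulator of transcription. In 4 samples the knockout cells carried a vector (Daxx-/- MEFs), and in 4 they were complemented with Daxx, under the names DaxxA (2 samples) and DaxxB (2 samples). The comparison of vector with Daxx addresses which genes respond when Daxx is returned to cells that lack it. What A and B mean, which promoter drives Daxx, and whether samples of a group are separate cultures or clones is not in the labels. There were no wild-type cells among the groups. The p-values thus reflect no more than the spread among these samples, which could be technical.

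Values are RMA log2 signals, so that a difference of 1 is a 2-fold difference. A signal can be compared between arrays for 1 gene, but not between genes. Changes are Daxx minus vector (4 arrays against 4) unless another comparison is named, with a standard error (SE) or a 95% confidence interval. A gene was called when its limma p-value, adjusted by the Benjamini-Hochberg method over all 19939 genes, was below 0.05.

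Vector replicate 2 stood apart from the other 7 arrays. The interquartile range of its log2 signals was 2.79 against 3.31 to 3.39, and across probe sets it correlated less with the others (mean r 0.969 against 0.990 to 0.992). The median signal of 1027 olfactory receptor genes, which mark the background here, was 5.21 on it and 4.65 to 4.70 on the others. Counts are for all 8 arrays unless the 7 that leave it out are named. The Daxx probe set read 7.34, 6.85, 7.27 and 7.16 in vector replicates 1 to 4, 7.35 and 7.36 in DaxxA and 7.46 and 7.23 in DaxxB. The conditions overlapped (exact two-sided permutation p = 0.143, where 0.0286 is the smallest possible). No source used here places this probe set relative to the deleted part of Daxx, so it does not check the labels. Of 11 fibroblast markers, 5 were called lower with Daxx (Pdgfra, Pdgfrb, Twist2, Prrx1 and Dcn), against 2.73% of all genes. Without vector replicate 2, 6 were called lower, with S100a4, against 7.57% of all genes. The intermediate filament gene Vim averaged 13.29 in both conditions. The array means of the 11 markers ran from 9.10 to 9.24 with vector (to 9.12 without vector replicate 2) and from 8.59 to 8.71 with Daxx. Fap and Lum, with vector means of 4.95 and 4.71, were near the background of the olfactory receptor genes. In bulk RNA, fewer cells of a type and less RNA per cell cannot be told apart.

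With all 8 arrays, 3 of the 44 collagen genes (6.82%) were called between Daxx and vector, against 4.52% of all genes. Col18a1 and Col1a2 were higher with Daxx and Col6a1 was lower. The changes were small, at 1.45-fold, 1.24-fold and 1.22-fold. In the higher direction the share was 2 of 44 against 1.8% of all genes, and in the lower direction 1 of 44 against 2.73%. Of the 41 members not called, 5 had an unadjusted p below 0.05, all of them positive. With the called members counted, 7 were positive and 1 negative at that level, against 1587 and 1489 of all 19939 genes. The 44 changes were split evenly, 22 positive and 22 negative, with a median of -0.0062 against -0.028 over all genes. Of all genes 8326 were positive and 11613 negative. Without vector replicate 2, 36 members were positive and 8 negative, with a median of 0.062 against 0.0155 over all genes. Of all genes 11382 were then positive and 8557 negative. The median over 8 arrays was 0.018 after centring the arrays on their medians and 0.0097 after a further quantile normalization, so its sign depended on the scaling as well. With median centring 2 members were called higher and 0 lower, against 209 and 352 of all 19939 genes. After the further quantile normalization 1 was higher and 1 lower, against 574 and 828 of all genes.

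Leaving out vector replicate 2 raised the count to 8 of 44 (18.2%), against 12.8% of all genes. The 5 higher genes were then Col18a1, Col1a2, Col4a1, Col4a2 and Col8a1 (5.26% of all genes were higher), and the 3 lower genes were Col6a1, Col12a1 and Col6a2 (7.57% of all genes were lower). The calls rested on few arrays: without vector replicate 1 only Col18a1 was called, without DaxxA replicate 1 or without DaxxB replicate 1 only Col6a1, and without DaxxA replicate 2 only Col1a2. Without vector replicate 3, vector replicate 4 or DaxxB replicate 2, 0 members passed limma's adjusted threshold. The calls over all genes fell as well in these fits, to between 446 and 559, against 902 with all 8 arrays. The directions of the 3 genes held in all 17 alternatives tried, but many of these could not have reversed them. The conditions did not overlap in these genes, so leaving out 1 array could not change the sign. A changed prior, the signal filter and the fit of 3 groups left the size of each change as it was. Over all alternatives the changes ranged from 0.42 to 0.63 for Col18a1, from 0.27 to 0.35 for Col1a2 and from -0.31 to -0.25 for Col6a1.

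**Figure D1:**
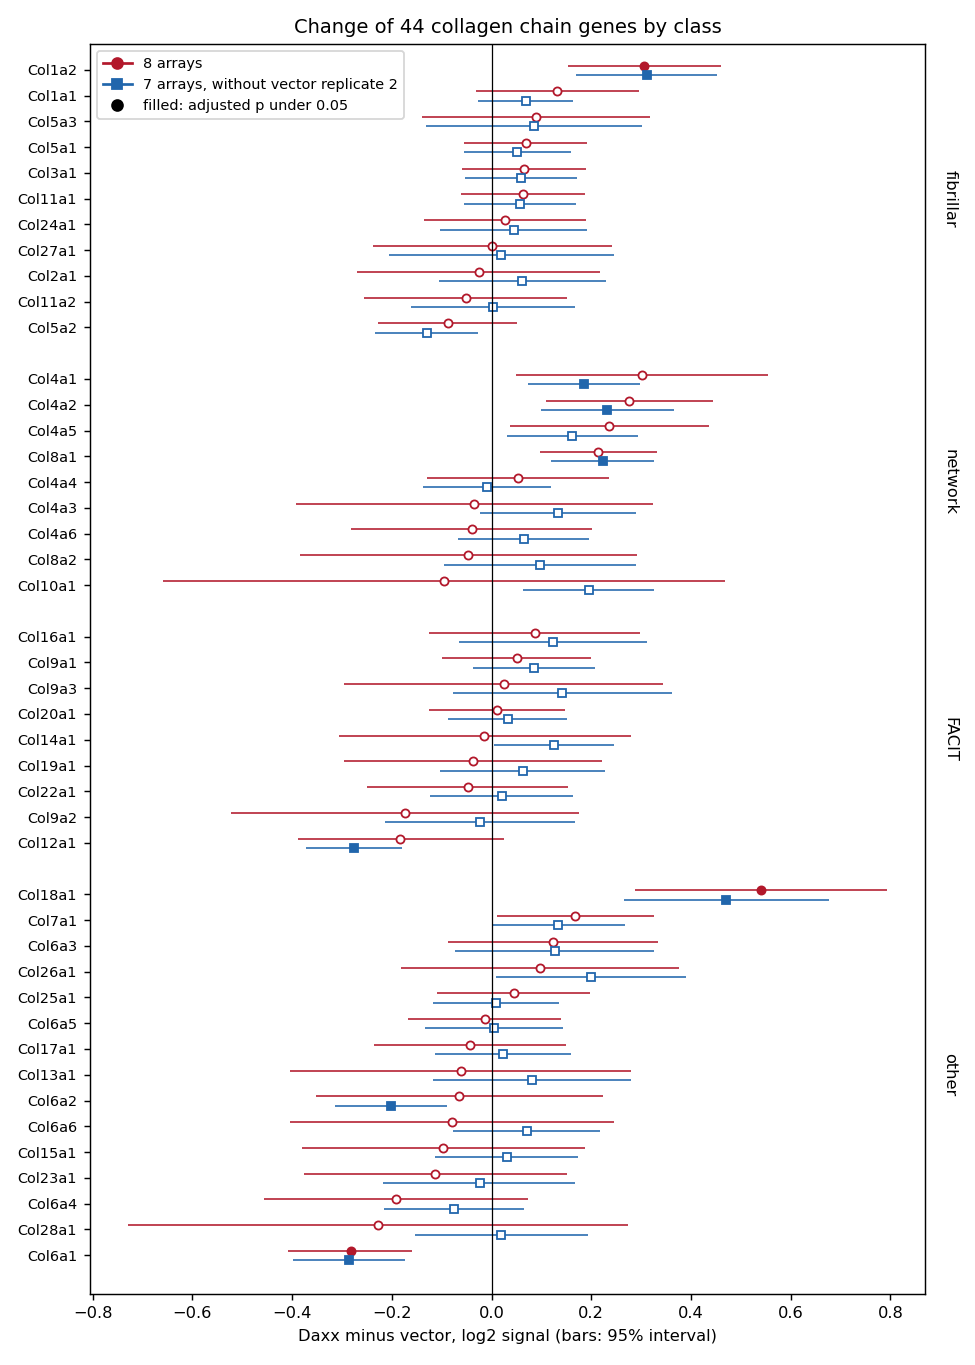
Change with Daxx (Daxx minus vector, log2 signal, horizontal axis) of each of the 44 collagen genes by class, over 8 arrays (circles) and over the 7 without vector replicate 2 (squares), with 95% confidence intervals; filled symbols passed the adjusted threshold. Col18a1 and Col1a2 lie to the right of 0 and Col6a1 to the left with either set of arrays, while Col4a1, Col4a2, Col8a1, Col12a1 and Col6a2 are filled for the 7 arrays alone.

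Among the fibrillar collagens, the pair of genes for type I collagen came first. Col1a2, which encodes the alpha-2 chain of type I collagen, read 8.77, 8.79, 8.74 and 8.81 in vector replicates 1 to 4, 9.003 and 8.96 in DaxxA, and 9.20 and 9.17 in DaxxB. All 4 Daxx arrays lay above all 4 vector arrays, and both DaxxB arrays lay above both DaxxA arrays. Its mean rose from 8.78 ± 0.031 (SD, n = 4) with vector to 9.08 ± 0.12 (SD, n = 4) with Daxx, a log2 change of 0.31 ± 0.068 (SE; limma adjusted p = 0.0398). Without vector replicate 2 the change was 0.31 (adjusted p = 0.00951). Vector replicate 2 itself lay within the range of the other vector arrays for this gene.

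Col1a1, which encodes the alpha-1 chain, read 11.39, 11.15, 11.41 and 11.42 in the vector arrays, 11.47 and 11.41 in DaxxA, and 11.51 and 11.50 in DaxxB. Vector replicate 2 was the lowest array, and the conditions overlapped at DaxxA replicate 2. The change was 0.13 (95% interval -0.0305 to 0.295; adjusted p = 0.460), and it was 0.068 (adjusted p = 0.389) without vector replicate 2. The Col1a2 signal less the Col1a1 signal, set to 0 at the mean of vector replicates 1, 3 and 4, was 0.17 and 0.18 in DaxxA and 0.32 and 0.30 in DaxxB. The 3 vector arrays that set the zero spread from -0.041 to 0.022, while vector replicate 2 read 0.27, between DaxxA and DaxxB. Whether the 2 chains changed by different amounts was not tested.

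The 250 bases before the annotated start of Col1a2 are shown because it was the fibrillar gene that was called (GRCm38.p6, chr6:4505368-4505617, plus strand, from RefSeq). Capitals mark the CCAAT box and the GGGCGG box, each searched on both strands.
Col1a2: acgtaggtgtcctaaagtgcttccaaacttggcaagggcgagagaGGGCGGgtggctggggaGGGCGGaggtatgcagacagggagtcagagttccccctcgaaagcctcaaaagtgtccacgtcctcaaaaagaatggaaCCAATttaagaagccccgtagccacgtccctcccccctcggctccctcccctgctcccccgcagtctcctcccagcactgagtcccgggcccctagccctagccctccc
This stretch held 1 CCAAT, 2 GGGCGG and 11 CpG dinucleotides, at 62.0% G and C. Col1a1 had no entry in the RefSeq promoter table.

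The remaining fibrillar genes showed smaller differences, and none of them was called. Col3a1, the chain of type III collagen, read 8.10, 8.08, 8.14 and 8.09 with vector, 8.14 and 8.09 in DaxxA, and 8.27 and 8.18 in DaxxB. The DaxxB arrays were the highest and the DaxxA arrays lay within the vector range (change 0.065, adjusted p = 0.666). Col5a1, whose chain belongs to the type V collagen that nucleates fibrils, read 8.18, 8.10, 8.18 and 8.16 with vector, 8.24 and 8.14 in DaxxA, and 8.31 and 8.20 in DaxxB (change 0.069, adjusted p = 0.653).

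Col5a2, its partner chain in type V collagen, read 8.39, 8.30, 8.49 and 8.53 with vector, 8.36 and 8.32 in DaxxA, and 8.31 and 8.36 in DaxxB. With vector replicate 2 the conditions overlapped (change -0.088, 95% interval -0.228 to 0.0515), and without it all 4 Daxx arrays lay below the vector arrays (change -0.13, adjusted p = 0.107). Col3a1 and Col5a2 are neighbours on chromosome 1, and their changes had opposite signs. Col11a2, a chain of the type XI collagen of cartilage, completed the lowest pair of the class at -0.052 (adjusted p = 0.800). Over the 11 fibrillar genes 8 changes were positive and 3 negative, with a median of 0.064, and without vector replicate 2 they were 10 and 1 with a median of 0.057.

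**Figure D2:**
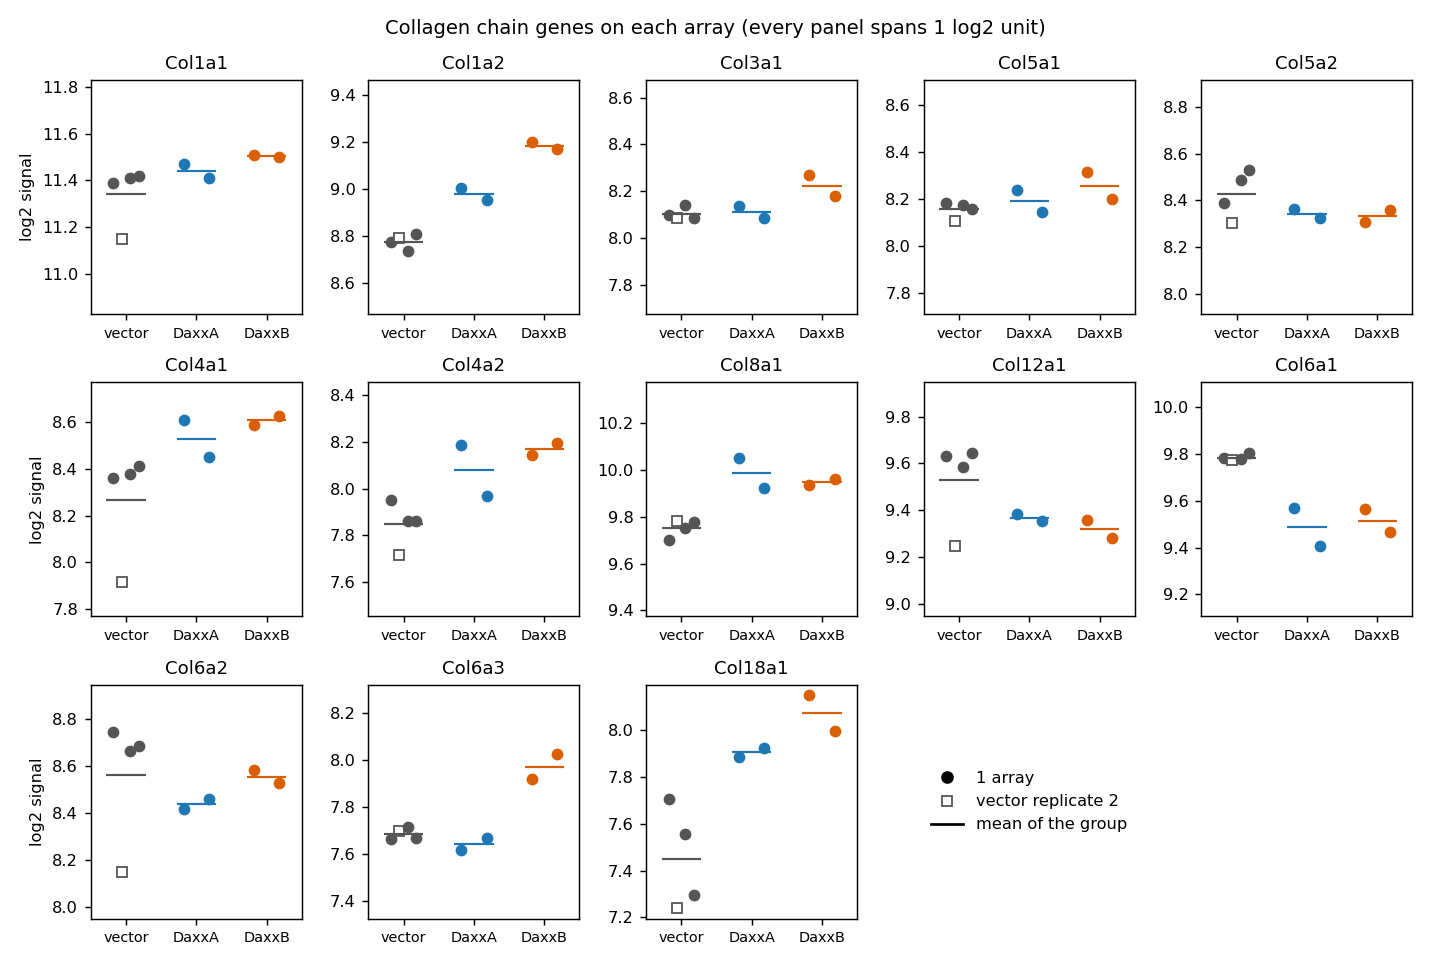
RMA log2 signal (vertical axis, each panel spanning 1 log2 unit) of the collagen genes described by array, by group (vector, DaxxA, DaxxB); each point is 1 array, lines are group means and the open square is vector replicate 2. For Col18a1, Col1a2, Col4a1, Col4a2 and Col8a1 the 4 Daxx arrays lie above the 4 vector arrays, and for Col6a1 they lie below.

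In the network class, 0 of 9 genes were called by limma with 8 arrays. Of the 9, 4 had an unadjusted p below 0.05, all positive, as had 1587 of all 19939 genes in that direction. Col4a1 and Col4a2 encode the chains of the commonest type IV collagen of basement membranes. Col4a1 read 8.36, 7.92, 8.38 and 8.41 with vector, 8.61 and 8.45 in DaxxA, and 8.59 and 8.63 in DaxxB. All 4 Daxx arrays were above all 4 vector arrays, and vector replicate 2 was far below the other vector arrays. The change was 0.30 (95% interval 0.049 to 0.555; adjusted p = 0.218), and without vector replicate 2 it was 0.19 (adjusted p = 0.0379).

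Col4a2 read 7.95, 7.72, 7.86 and 7.86 with vector, 8.19 and 7.97 in DaxxA, and 8.15 and 8.19 in DaxxB. The conditions did not overlap, although DaxxA replicate 2 lay only just above vector replicate 1. The change was 0.28 (95% interval 0.109 to 0.444; adjusted p = 0.080), and without vector replicate 2 it was 0.23 (adjusted p = 0.0299). For both genes, vector replicate 2 pulled the vector mean down and widened its spread. The difference between the Col4a1 and Col4a2 signals, set to 0 as above, averaged -0.040 in DaxxA and -0.054 in DaxxB, within the -0.081 to 0.057 of the 3 vector arrays that set the zero. Vector replicate 2 lay outside them, at -0.29.

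Col4a1 and Col4a2 lie head to head, and the 30 bases that hold both annotated starts are shown because the 2 genes share them (GRCm38.p6, chr8:11312801-11312830, plus strand, from RefSeq). Capitals mark the 22 bases from the Col4a2 start at 11312805 to the Col4a1 start at 11312826.
Col4a1 and Col4a2: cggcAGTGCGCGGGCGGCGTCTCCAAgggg

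Col8a1, a short-chain collagen that forms hexagonal lattices, read 9.70, 9.78, 9.75 and 9.78 with vector, 10.05 and 9.92 in DaxxA, and 9.93 and 9.96 in DaxxB. The groups were separate and the change was 0.21 (95% interval 0.097 to 0.331; adjusted p = 0.055), or 0.22 without vector replicate 2 (adjusted p = 0.00997). The call for Col8a1 was also made with a trend in limma's prior and with a filter on low signals. Col4a5, a type IV chain of kidney and lung basement membranes, had the third largest change of the class at 0.24 (adjusted p = 0.224). All Daxx arrays were above all vector arrays, but DaxxA replicate 2 at 7.629 only just exceeded vector replicate 3 at 7.628. The lowest pair was Col10a1, the collagen of hypertrophic cartilage, at -0.095 (adjusted p = 0.867), and Col8a2, the partner of Col8a1, at -0.047 (adjusted p = 0.893). Both turned positive without vector replicate 2, on which Col10a1 read 6.83 against a mean of 5.67 on the other vector arrays. Without it Col10a1 was at 0.20 (adjusted p = 0.059) and Col8a2 at 0.097 (adjusted p = 0.560). The class median was 0.053, and 0.16 without vector replicate 2, when 8 of 9 changes were positive.

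No FACIT gene was called by limma with 8 arrays, and 0 of the 9 had an unadjusted p below 0.05. Col12a1, which coats type I fibrils in tendon and skin, read 9.63, 9.25, 9.59 and 9.65 with vector, 9.38 and 9.36 in DaxxA, and 9.36 and 9.28 in DaxxB. Vector replicate 2 was the lowest of all 8 arrays, and the other 3 vector arrays lay above all 4 Daxx arrays. The change was therefore -0.18 (95% interval -0.389 to 0.0243; adjusted p = 0.404) with that array and -0.28 (adjusted p = 0.00207) without it. The second lowest FACIT, Col9a2, a chain of cartilage type IX collagen, was at -0.17 (adjusted p = 0.677), and at -0.023 without vector replicate 2. The highest were Col16a1 at 0.086 (adjusted p = 0.707) and Col9a1, another type IX chain, at 0.050 (adjusted p = 0.747). The class median was -0.014, or 0.062 without vector replicate 2.

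The other classes held the highest and the lowest change of all 44 genes. Col18a1 encodes a heparan sulfate proteoglycan collagen of basement membranes whose end fragment is endostatin. It read 7.70, 7.24, 7.56 and 7.30 with vector, 7.89 and 7.92 in DaxxA, and 8.15 and 7.998 in DaxxB. All Daxx arrays lay above all vector arrays, and the vector arrays spread more widely than the Daxx arrays. The mean rose from 7.45 ± 0.22 (SD, n = 4) to 7.99 ± 0.12 (SD, n = 4), a log2 change of 0.54 ± 0.11 (SE; adjusted p = 0.0300), and 0.47 (adjusted p = 0.00728) without vector replicate 2. Col15a1, the other multiplexin, was at -0.097 (adjusted p = 0.745), and at 0.030 without vector replicate 2.

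Type VI collagen is assembled from the products of Col6a1, Col6a2 and a further, longer chain, such as that of Col6a3. Col6a1 read 9.78, 9.77, 9.78 and 9.81 with vector, 9.57 and 9.41 in DaxxA, and 9.57 and 9.47 in DaxxB. The vector arrays, replicate 2 among them, lay close together, and all 4 Daxx arrays were below them. The mean fell from 9.79 ± 0.014 (SD, n = 4) to 9.502 ± 0.080 (SD, n = 4), a log2 change of -0.28 ± 0.055 (SE; adjusted p = 0.0232), and -0.29 (adjusted p = 0.00404) without vector replicate 2.

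Col6a2 read 8.75, 8.15, 8.66 and 8.69 with vector, 8.42 and 8.46 in DaxxA, and 8.58 and 8.53 in DaxxB. Vector replicate 2 was the lowest of the 8 arrays and the other vector arrays were the 3 highest. The change was -0.065 (95% interval -0.352 to 0.223; adjusted p = 0.824) with it and -0.20 (adjusted p = 0.0253) without it. Col6a3 read 7.66, 7.70, 7.71 and 7.67 with vector, 7.62 and 7.67 in DaxxA, and 7.92 and 8.03 in DaxxB. Only the DaxxB arrays stood above the vector arrays (change over both 0.12, adjusted p = 0.634).

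Of the 3 type VI chains, only Col6a1 was called with all 8 arrays. In DaxxA minus vector all 3 were negative, at -0.30 for Col6a1, -0.12 for Col6a2 and -0.042 for Col6a3. In DaxxB minus vector they were at -0.27, -0.0061 and 0.29. The Col6a1 signal less the Col6a3 signal, set to 0 in vector replicates 1, 3 and 4, was -0.16 and -0.37 in DaxxA and -0.46 and -0.67 in DaxxB. All 4 Daxx arrays lay below all 4 vector arrays, which ran from -0.043 to 0.031. This difference was described and not tested. The alternative long chains Col6a4, Col6a5 and Col6a6, whose genes adjoin on chromosome 9, were at -0.19, -0.014 and -0.080, and none of them was called. For Col6a5 the second probe set gave -0.074, and for Col6a6 it gave -0.022, so the 2 probe sets had the same sign in each gene. The second probe sets had mean signals of 5.17 and 5.54, below the level of 6.07 taken as background further on. All 4 values turned positive without vector replicate 2, to 0.0049 and 0.053 for Col6a5 and 0.070 and 0.10 for Col6a6.

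Col18a1 and Col6a1, the 2 members with the extreme called changes, lie on chromosome 10 with the coding genes Pcbp3 and Slc19a1 between them. Neither neighbour was called, at -0.014 (adjusted p = 0.928) for Pcbp3, an RNA-binding protein gene, and 0.18 (adjusted p = 0.349) for Slc19a1, the reduced folate carrier gene. The 250 bases before their annotated starts are shown because the genes changed in opposite directions (GRCm38.p6, from RefSeq; Col6a1 at chr10:76726045-76726294, and the 2 starts of Col18a1 at chr10:77166531-77166780 and chr10:77113706-77113955, all on the minus strand and written 5′ to 3′). Capitals mark CCAAT and GGGCGG, or their reverse complements ATTGG and CCGCCC.
Col6a1: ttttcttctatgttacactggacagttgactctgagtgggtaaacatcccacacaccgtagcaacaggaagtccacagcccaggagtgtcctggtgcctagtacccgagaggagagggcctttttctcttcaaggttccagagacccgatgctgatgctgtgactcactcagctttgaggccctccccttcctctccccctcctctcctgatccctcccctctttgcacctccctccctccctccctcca
Col18a1, start 1: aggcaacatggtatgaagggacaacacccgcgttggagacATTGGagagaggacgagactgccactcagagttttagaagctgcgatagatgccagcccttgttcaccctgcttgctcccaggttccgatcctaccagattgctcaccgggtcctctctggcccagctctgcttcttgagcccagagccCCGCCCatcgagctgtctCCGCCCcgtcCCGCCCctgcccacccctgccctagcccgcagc
Col18a1, start 2: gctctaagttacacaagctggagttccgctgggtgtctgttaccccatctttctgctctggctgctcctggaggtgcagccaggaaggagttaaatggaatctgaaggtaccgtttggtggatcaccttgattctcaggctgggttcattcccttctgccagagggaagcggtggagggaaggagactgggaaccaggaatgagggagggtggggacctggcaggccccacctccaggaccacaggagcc
Start 1 of Col18a1 held 1 CCAAT and 3 GGGCGG with 12 CpG dinucleotides, whereas start 2 and the Col6a1 stretch held neither motif and 3 CpG each. The array does not tell the 2 starts of Col18a1 apart here. The RefSeq table gave 38 promoters for 35 of the 44 members. GGGCGG (or CCGCCC) was in 22 of the 38 (57.9%), against 32.7% of all 32851 promoters of the same length. CCAAT (or ATTGG) was in 13 (34.2%) against 33.8%, and TATAAA (or TTTATA) in 5 (13.2%) against 12.4%. No matches overlapped in the stretches shown. A match is only a run of letters, not a bound site.

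The rest of the other classes moved little with 8 arrays. Col7a1, the anchoring fibril collagen of skin, had the second highest change of this group at 0.17 (adjusted p = 0.286). Col28a1 had the second lowest at -0.23 (adjusted p = 0.692), which became 0.019 (adjusted p = 0.920) without vector replicate 2. Of the 15 genes 5 changes were positive and 10 negative, with a median of -0.062, and without vector replicate 2 they were 11 and 4 with a median of 0.023. Of all 44 members, 6 had every Daxx array above every vector array (Col1a2, Col18a1, Col4a1, Col4a2, Col4a5 and Col8a1). That is 13.6%, against 8.02% of all genes. Col6a1 alone had every Daxx array below (2.27%, against 6.79% of all genes). Without vector replicate 2, the separate members were 8 above (18.2% against 11.4%) and 4 below (9.09% against 12.9%).

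The departure of vector replicate 2 ran with the strength of the signal. Among the 33 collagen genes whose mean on the other 7 arrays was below 8, this array was the highest of the 4 vector arrays in 25, with a median difference of 0.27 from the mean of the other 3. Among the 11 genes at 8 or more it was the lowest in 9, with a median of -0.17. Over all 44 genes the difference ran from -0.55 for Col6a2 to 1.16 for Col10a1. The array was the highest in 59.1% of collagens and the lowest in 31.8%, against 48.8% and 39.2% of all genes. Col10a1, Col14a1 and Col28a1 had mean signals at or below 6.07, a level that 95% of olfactory receptor genes did not exceed, so that their signals cannot be told from background here. The other 41 members were above it.

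**Figure D3:**
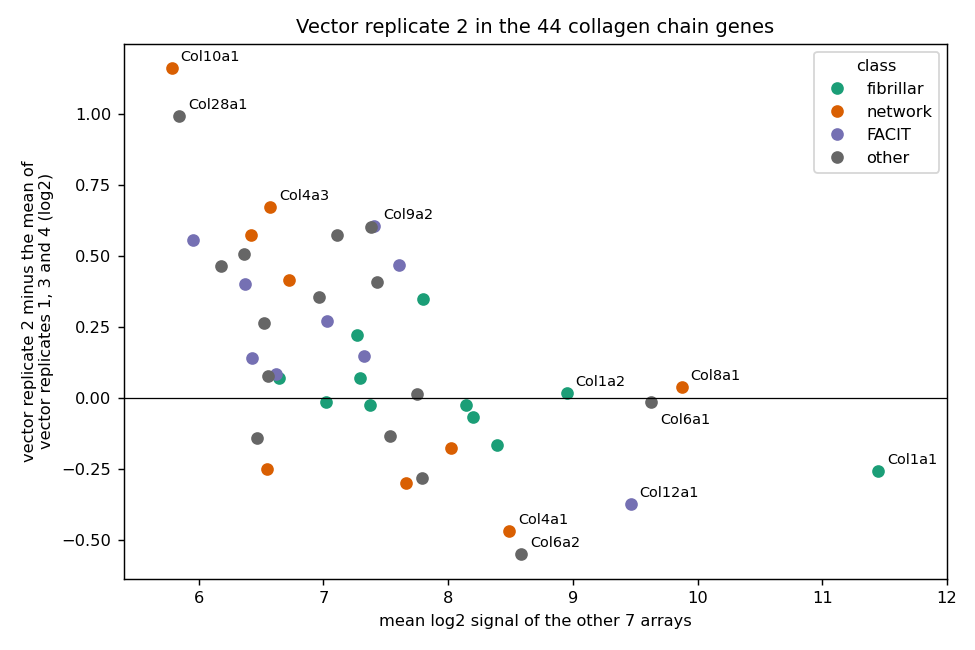
Vector replicate 2 less the mean of vector replicates 1, 3 and 4 (log2 signal, vertical axis) against the mean log2 signal of the other 7 arrays (horizontal axis), 1 point a collagen gene, coloured by class. Most genes below a signal of 8 lie above 0, up to 1.16 for Col10a1, and 9 of the 11 genes at 8 or more read lowest on this array among the vector arrays.

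DaxxA and DaxxB were then each set against the same 4 vector arrays, in a fit of 3 groups, so their values share the vector arrays. For DaxxA minus vector limma called 0 of 44 members against 1.97% of all genes (0.522% higher and 1.45% lower). An unadjusted p below 0.05 was found for 5 members and for 2282 of all 19939 genes. For DaxxB minus vector limma called 1 member, Col1a2, against 2.69% of all genes (0.767% higher and 1.92% lower). There an unadjusted p below 0.05 was found for 11 members and for 2882 of all genes. The Col1a2 change was 0.20 in DaxxA (adjusted p = 0.176) and 0.41 in DaxxB (adjusted p = 0.0122). Col18a1 was at 0.46 in DaxxA (adjusted p = 0.210) and at 0.63 in DaxxB (adjusted p = 0.0681). Col6a1 was at -0.30 (adjusted p = 0.101) and -0.27 (adjusted p = 0.106), and Col8a1 at 0.23 (adjusted p = 0.167) and 0.20 (adjusted p = 0.197).

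Without vector replicate 2, 6 members (13.6%, against 11.3% of all genes) were called in DaxxA, of which Col18a1, Col1a2 and Col8a1 were higher (4.46% of all genes were) and Col12a1, Col6a1 and Col6a2 were lower (6.8% of all genes were). In DaxxB 19 members (43.2%, against 20.5% of all genes) were called. Of these 17 were higher (38.6%, against 10.9% of all genes) and Col12a1 and Col6a1 were lower (4.55%, against 9.53% of all genes). The olfactory receptor genes, which mark the background, leaned the same way, with 57 of 1027 called higher and 5 lower. The 17 higher members held 7 of the 9 network genes, namely Col4a1, Col4a2, Col4a3, Col4a5, Col4a6, Col8a1 and Col10a1, whose signal cannot be told from background. They also held the fibrillar genes Col1a2 and Col5a3, the FACITs Col9a3, Col16a1 and Col19a1, and Col6a3, Col7a1, Col13a1, Col18a1 and Col26a1. The changes in DaxxB among them ran from 0.16 for Col4a6 (adjusted p = 0.0417) to 0.56 for Col18a1 (adjusted p = 0.00311). The Col1a2 call in DaxxB with all arrays was lost without vector replicate 1, vector replicate 3 or either DaxxB replicate, when 0 members were called.

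The direct difference, DaxxA minus DaxxB, leaned one way for most collagens. It was negative for 41 of 44 members, against 12716 of all 19939 genes and 706 of 1027 olfactory receptor genes. The median was -0.17 over the members, against -0.036 over all genes and -0.038 over the olfactory receptor genes. Both DaxxA arrays lay below both DaxxB arrays in 34 members (77.3%), against 35.9% of all genes, and above both in 0, against 17.9%. The 10 members whose arrays overlapped were Col4a1, Col4a2, Col5a1, Col5a2, Col6a1, Col8a1, Col11a1, Col12a1, Col20a1 and Col25a1, which include Col6a1 of the 3 called genes. The 3 positive differences were those of Col12a1 at 0.048, Col8a1 at 0.037 and Col5a2 at 0.010. The median stayed negative with the arrays centred on their medians (-0.16) and after a further quantile normalization (-0.15).

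With all 8 arrays limma called 0 members for this difference, as it called 0.0% of all genes, and 7 members, all lower in DaxxA, had an unadjusted p below 0.05 (846 of all genes did). Without vector replicate 2, 4 members were called lower in DaxxA (9.09%, against 1.36% of all genes in that direction, 0.787% in the other and 2.15% in both). They were Col5a3 at -0.34 (adjusted p = 0.0395), Col6a3 at -0.33 (adjusted p = 0.0291), Col9a2 at -0.31 (adjusted p = 0.0347) and Col19a1 at -0.26 (adjusted p = 0.0395). With 2 arrays a group these calls rest on the spread shared with the vector arrays. Array medians were 6.65 and 6.67 in DaxxA and 6.68 and 6.67 in DaxxB, and interquartile ranges were 3.37 and 3.34 against 3.32 and 3.31. The part of such array differences in the collagen result was not tested.

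**Figure D4:**
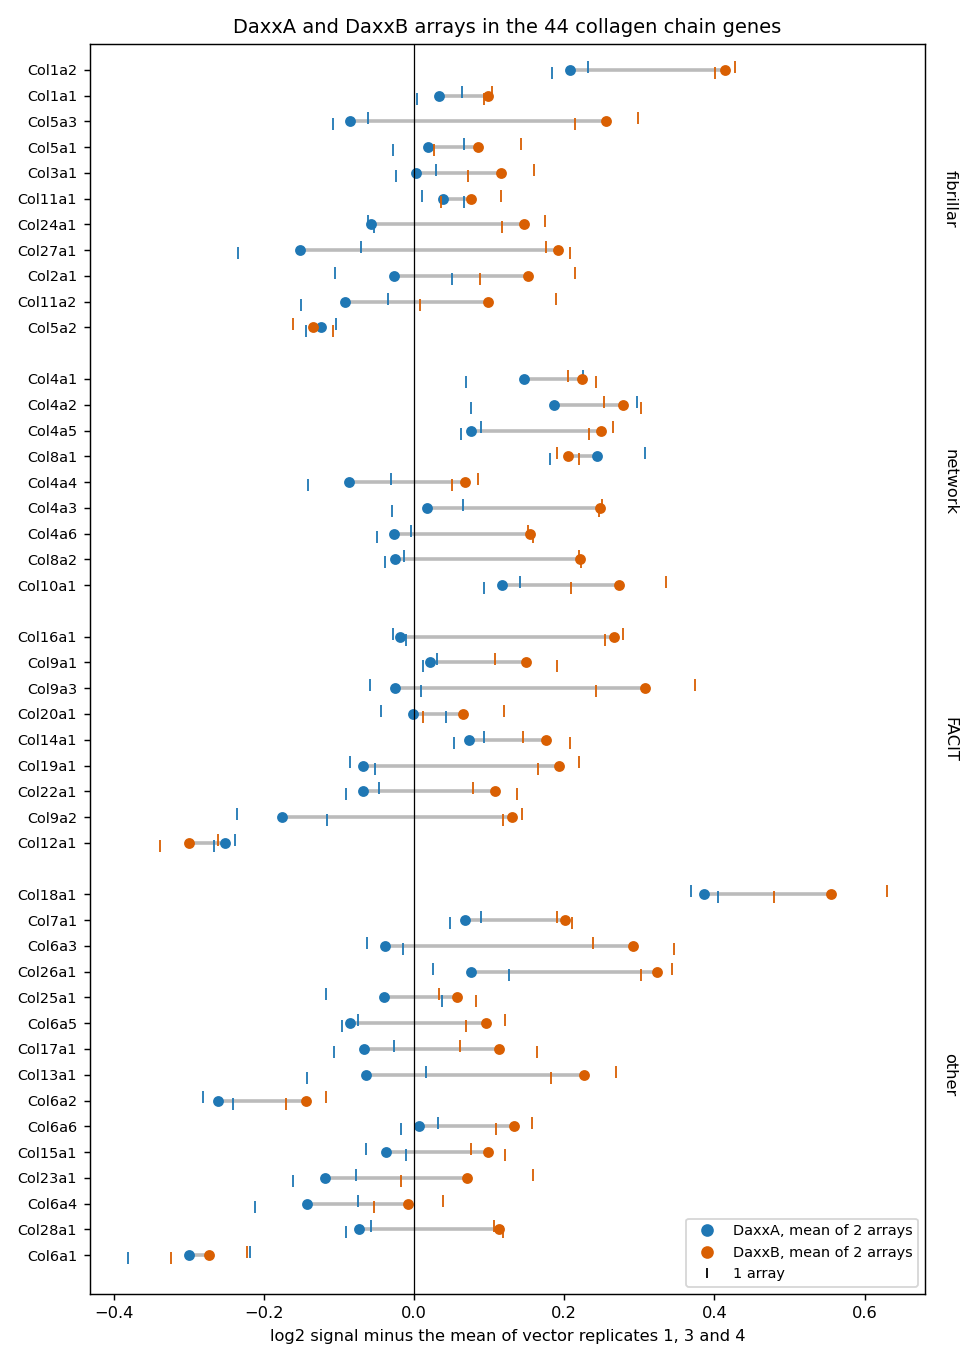
Log2 signal of each of the 44 collagen genes in DaxxA and DaxxB less the mean of vector replicates 1, 3 and 4 (horizontal axis), by class; circles are means of 2 arrays, ticks are single arrays and grey bars join the means. The DaxxB mean lies to the right of the DaxxA mean in 41 of 44 genes, and to the left in Col5a2, Col8a1 and Col12a1.

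Genes that process, bind and break down collagen were taken from lists by role. These lists were made with earlier results of these arrays known, so their counts are a description. Among 19 genes for hydroxylation and folding in the endoplasmic reticulum, 2 were lower with Daxx and none was higher. P4ha3, a catalytic subunit of prolyl 4-hydroxylase, fell by 0.46 (adjusted p = 0.0134), from 10.55 ± 0.10 to 10.08 ± 0.13 (SD, n = 4 each). P3h2, a prolyl 3-hydroxylase, fell by 0.33 (adjusted p = 0.0246). Relatives of these genes did not pass, with P3h3 at -0.27 (adjusted p = 0.0639) and Crtap, a partner in prolyl 3-hydroxylation, at -0.24 (adjusted p = 0.094). Both were called without vector replicate 2, P3h3 at -0.23 (adjusted p = 0.0213) and Crtap at -0.28 (adjusted p = 0.00574), and 6 of the 19 were lower in all. The median of the 19 was -0.048 with all arrays.

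Of 7 genes for export and transcription, Creb3l1 was higher. It encodes a membrane-bound factor that is released from the endoplasmic reticulum and acts on type I collagen genes. Its mean rose from 10.17 ± 0.051 to 10.73 ± 0.037 (SD, n = 4 each), a 1.47-fold change (log2 0.55, adjusted p = 0.000463). Sec23a, a coat subunit of export vesicles, was not called with all arrays and was called without vector replicate 2, at -0.23 (adjusted p = 0.00478). Of 7 genes for propeptide removal, 1 was higher and 2 were lower. Pcolce2, an enhancer of the C-propeptide protease, rose by 0.98 (adjusted p = 0.000125), while its relative Pcolce fell by 0.22 (adjusted p = 0.0358). Adamts3, an N-propeptide protease, fell by 0.75 (1.68-fold; adjusted p = 0.00033). Adamts14, of the same protease family, was at 0.50 (adjusted p = 0.193) and was called without vector replicate 2, at 0.30 (adjusted p = 0.00408).

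Of 4 crosslinking genes, Lox, the lysyl oxidase that joins chains in fibrils, fell by 0.62 (adjusted p = 0.000699), from 12.06 ± 0.10 to 11.44 ± 0.032 (SD, n = 4 each). The related Loxl1, Loxl3 and Loxl4 were at 0.099, -0.24 and 0.15 and were not called, and Loxl3 was called without vector replicate 2 at -0.37. Of 13 fibril-binding proteins 2 were lower. Dcn, or decorin, a proteoglycan that regulates fibril width, fell by 1.47 (2.76-fold; adjusted p = 5.47e-05), and Thbs2, a matricellular protein, fell by 0.64 (adjusted p = 0.000588). Fmod, or fibromodulin, was called as well without vector replicate 2, at -0.33 (adjusted p = 0.0135). Dcn is also one of the 5 lower fibroblast markers above.

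Of 9 collagen receptors 1 was higher and 2 were lower. Ddr2, a receptor kinase for fibrillar collagen, rose by 0.37 (adjusted p = 0.0305). Itga1, a collagen-binding integrin subunit, fell by 0.39 (adjusted p = 0.00381). Its means of 6.265 with vector and 5.875 with Daxx were near the background level of 6.07. Mrc2, which takes up collagen for breakdown, fell by 0.40 (adjusted p = 0.0279). Of 7 collagen-degrading enzymes, Mmp9, a gelatinase, rose by 0.55 (adjusted p = 0.0422), and was also called at 0.42 without vector replicate 2. Mmp13, a collagenase, was called without that array at -0.31 (adjusted p = 0.00139), with vector and Daxx means of 5.94 and 5.71 over all arrays, both below the background level of 6.07. Over the 66 genes of the 7 lists, 4 were called higher (6.06%) and 9 lower (13.6%) with all 8 arrays, against 1.8% and 2.73% of all genes. The 7 arrays without vector replicate 2 gave 5 higher (7.58%) and 17 lower (25.8%), against 5.26% and 7.57% of all genes. Fkbp10, Adamts2, Loxl2 and Gp6 of these lists were not analysed here.

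**Figure D5:**
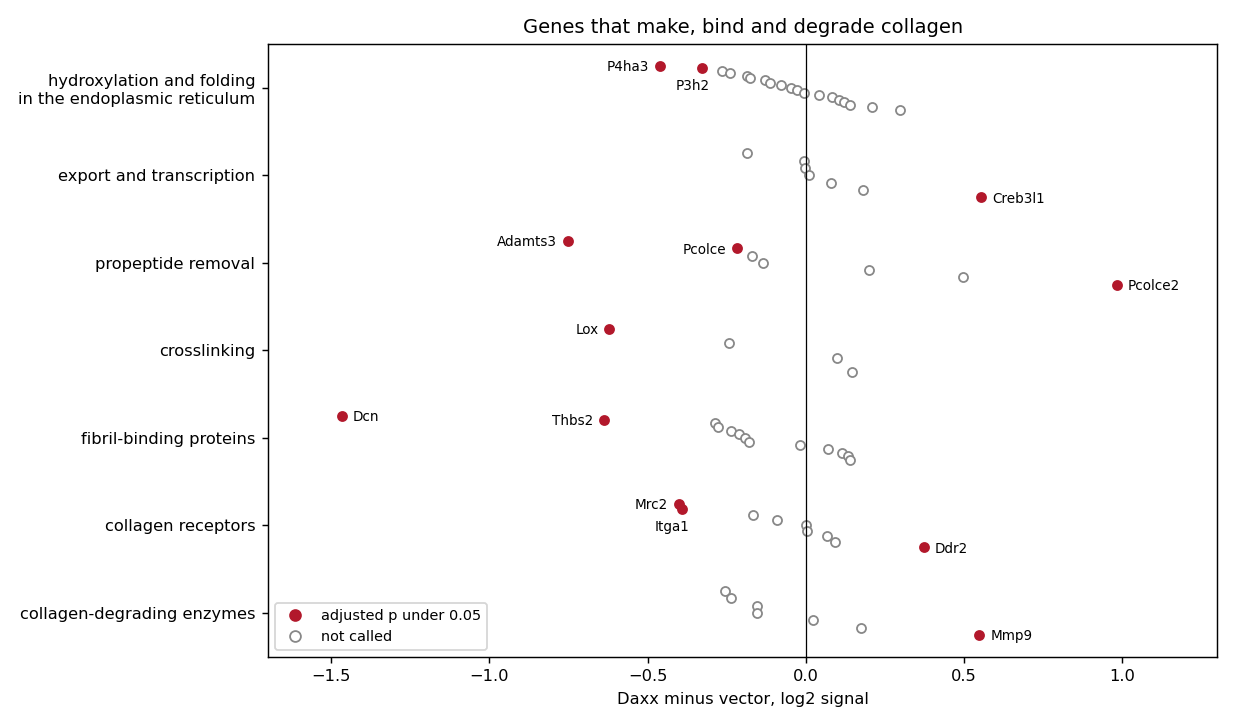
Change with Daxx (Daxx minus vector over 8 arrays, log2 signal, horizontal axis) of the genes that make, bind and degrade collagen, grouped by role; filled points passed the adjusted threshold and are named. Dcn lies lowest at -1.47 and Pcolce2 highest at 0.98, while the 44 collagen genes ran from -0.28 to 0.54. The lists were made with earlier results of these arrays known, so their range is only a description.

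Markers of other cell types that make collagen were checked as well. With 8 arrays 0 of 7 cartilage, 0 of 4 bone, 0 of 7 endothelial, 0 of 7 epithelial, 0 of 7 blood and 0 of 5 skeletal muscle markers were called. Over all genes 4.52% were called, and 1.8% were higher. The cartilage marker Sox9, a transcription factor of chondrocytes, was called without vector replicate 2, at 0.21 (adjusted p = 0.0173), against an adjusted p of 0.0636 with all arrays, and the other 5 lists still had 0 calls. The array means of the cartilage markers ran from 6.03 to 6.35 with vector (to 6.09 without vector replicate 2) and from 6.04 to 6.19 with Daxx, and 5 of the 7 were at or below the olfactory receptor level. Of 6 smooth muscle and pericyte markers Acta2, smooth muscle actin, rose by 0.38 (adjusted p = 0.00593), and of 3 neural markers Nes, or nestin, rose by 0.50 (adjusted p = 0.023). Vector replicate 2 had the highest array mean of both lists, at 7.28 for smooth muscle and 7.86 for neural markers. The other 3 vector arrays lay below all 4 Daxx arrays in both, at 7.01 to 7.09 against 7.11 to 7.23 for smooth muscle and 7.46 to 7.49 against 7.64 to 7.69 for neural markers. The part of these markers and of the fibroblast markers in the collagen changes was not tested.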

How the data were processed

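The deposited table held log2 signals that the authors made with Affymetrix Expression Console and RMA, per the submitters' processing notes. RMA subtracts background, quantile-normalizes the arrays and summarises each probe set. Versions, library file and build: not given in the sources used here. Of 35556 probe sets, 21789 had 1 gene symbol in the platform annotation, 1621 several and 12146 none. The probe set with the highest mean was kept for each of 19939 genes, and 1850 were set aside. No detection calls were used. The number of arrays limits the precision.

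All genes were fitted in R 4.3.3 with limma 3.58.1 (lmFit, eBayes), with 2 conditions for Daxx against vector and 3 groups for DaxxA and DaxxB, after a check on simulated data. Alternatives were each array left out, the replicate number as a block, array weights, a trended or robust prior, median centring, a further quantile normalization, a filter at a mean signal of 6, the mean of probe sets, and 3 groups.

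Named were the called members, the chains of the main fibroblast collagens, the 2 highest and 2 lowest of each class, members whose call changed when 1 array was left out, and up to 4 members of each role list by adjusted p with all called ones. Other members were named after their values were seen, where a count was small. The members and lists were chosen with earlier results of these data known. Promoters came from a RefSeq table of GRCm38.p6.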

Additional observations from a re-analysis of the deposited data

Results flagged for a closer look

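In 10 of the 44 collagen genes, 1 vector array lay far from the other 3 (a gap that takes more of the group's range than Dixon's 95% value for 4 samples, which chance exceeds in about 1 of 20 groups). In 9 of them it was vector replicate 2. It read high for 5 genes: 6.83 for Col10a1 against a mean of 5.67 on the other 3, 8.02 against 7.42 for Col9a2, 7.17 against 6.50 for Col4a3, 7.10 against 6.68 for Col4a6 and 6.77 against 6.51 for Col17a1. It read low for 4: 8.15 against 8.70 for Col6a2, 7.92 against 8.38 for Col4a1, 9.25 against 9.62 for Col12a1 and 11.1 against 11.4 for Col1a1. For Col27a1, vector replicate 4 was low, at 7.15 against 7.35. The share of all genes flagged in this way was not computed. Over all genes vector replicate 2 was the highest vector array in 48.8% and the lowest in 39.2%. The count of flagged genes is therefore not a result about collagens.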

How the results depend on the processing

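Each array left out in turn gave 446 to 2558 genes called between Daxx and vector, with 0 to 5 collagens higher and 0 to 3 lower, 0 to 6 collagens called in DaxxA minus vector, 0 to 19 in DaxxB minus vector and 0 to 4 in DaxxA minus DaxxB. Where 1 DaxxA or DaxxB array was left out of the 3 groups, the lone array was assumed to vary like the other groups. With the replicate number as a block, 162 genes, 0 collagens higher and 0 lower were called, 0 collagens in DaxxB, and Col6a2 turned to 0.049. Whether the replicate numbers pair the samples was not settled. Deviations from the group means correlated at 0.024 to 0.16 between arrays of the same number. With 2 arrays each in DaxxA and DaxxB, the deviations of the 2 replicates mirror each other, so these correlations cannot decide it. Array weights gave 3232 genes, 5 collagens higher, 3 lower, 6 in DaxxA, 19 in DaxxB and 7 in DaxxA minus DaxxB. In the last 3 comparisons they gave 2720, 4252 and 485 genes in all. Median centring gave 561 genes and 0 collagens lower. A further quantile normalization gave 1402 genes, 1 collagen higher, 1 in DaxxA (of 659 genes called) and 2 in DaxxB (of 1037). The filter at a mean signal of 6 left 13251 genes and 42 collagens. Between Daxx and vector it called 1326 genes, 597 of them higher, with 4 collagens higher and 1 lower. In DaxxA it called 591 genes and 1 collagen, and in DaxxB 927 genes and 4 collagens. A trended prior gave 1 collagen in DaxxA (of 590 genes called) and 3 in DaxxB (of 920). The causes were not tested. Single genes were followed for 11 members only, the called ones and the chains of the main fibroblast collagens. Of their values under the alternatives, 157 kept direction and side of the threshold, 22 lost the call, 7 gained it and 1 reversed. The other members are not in these counts. Over all 44 members, 22 changes were negative with 8 arrays and 8 without vector replicate 2. Signals near the background limit Col10a1, Col14a1 and Col28a1.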
